A study of Mus musculus with 32 samples.

Results

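Brain arteries carry fragments of the tissue they run through, and the libraries of dissected arteries described here differed in how much neuronal RNA they held. All 32 libraries were ranked within their own group by a score, the mean of log2(CPM + 1) of *Snap25* and *Syt1*, where CPM is the count of a gene divided by the total of its library, on the counts-per-million scale. The members of the 2 sets were thus chosen by measured levels of these 2 genes. The 4 highest libraries of each group made up the neural-rich set and the 4 lowest the neural-poor set, which gave 16 neural-rich and 16 neural-poor libraries of 32 in all. The sets were then compared across every other gene, with the group kept in the model.

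Each library came from 1 mouse, with 8 mice in each of 4 groups. *Notch3*-/- mice, in which *Notch3* is inactivated, and *Notch3*+/+ controls were 3 months old. The other pair of groups was aged 12 months: Tg*Notch3*R169C mice, with a mutant rat *Notch3* transgene on top of their own mouse *Notch3* genes, and nontransgenic WT controls. All lines were on a C57BL/6 background, and the transgene sits on the X chromosome, so its dose may differ between male and female mice, both of which the study used. No group combined the knockout with the transgene, and neither pair of groups was studied at the age of the other. Arteries were picked under a stereomicroscope in cold PBS, and polyadenylated RNA of the frozen tissue was made into strand-specific libraries. The libraries held 20.3 to 54.5 M counts, with a mean of 33.0 ± 7.25 M (SD, n = 16) in the neural-rich and 34.6 ± 8.25 M (SD, n = 16) in the neural-poor set, and depth did not differ detectably between the sets (2-sided permutation test, p = 0.573). The labels used here give neither the sex of a mouse nor a dissection or sequencing batch.

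SNAP25 and synaptotagmin-1 are parts of the machinery that releases transmitter from nerve terminals: SNAP25 belongs to the SNARE complex that fuses vesicles with the membrane, and synaptotagmin-1 is the calcium sensor that triggers fusion. Neurons carry mRNA in their processes as well as in their cell bodies, and arteries on and in the brain are wrapped by astrocyte endfeet and touch the surrounding neuropil. The artery wall itself is built from smooth muscle, endothelium, fibroblasts, and macrophages.

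The 2 genes that made the score are described without a test, because they chose the sets. Normalized *Snap25* ranged from 70.8 to 316 CPM with a median of 143 in neural-rich libraries and from 46.5 to 155 CPM with a median of 73.2 in neural-poor libraries. Normalized *Syt1* ranged from 55.1 to 246 CPM with a median of 107 in neural-rich libraries and from 33.0 to 105 CPM with a median of 57.9 in neural-poor libraries. The neural-poor set was therefore poorer, not free of neuronal RNA. Each group was divided at its own middle and by the mean of both genes, so the ranges of a single gene could overlap between and within groups. In WT mice, *Snap25* was lower in neural-rich replicate 8 than in neural-poor replicates 1 and 4.

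The division fell close to neighboring libraries. The lowest neural-rich and the highest neural-poor score were 6.04 and 5.95 in *Notch3*+/+ mice, 6.63 and 6.51 in *Notch3*-/- mice, 7.26 and 7.03 in Tg*Notch3*R169C mice, and 6.70 and 6.43 in WT mice. The scores spanned 1.63 to 2.28 within a group. *Notch3*+/+ replicate 3 had the highest score of all, 8.00, and the next library of its group had 6.67. The ranking was made within groups and did not fix the level of a group. The mean score did not differ detectably between groups. It was 6.27 ± 0.76 in *Notch3*+/+, 6.34 ± 0.56 in *Notch3*-/-, 6.60 ± 0.71 in WT, and 7.08 ± 0.59 in Tg*Notch3*R169C mice (SD, n = 8 each). The exact 2-sided permutation tests gave p = 0.840 for *Notch3*-/- against *Notch3*+/+, p = 0.170 for Tg*Notch3*R169C against WT, and p = 0.380 for WT against *Notch3*+/+ mice, or 0.840, 0.511, and 0.570 after Benjamini-Hochberg adjustment over these 3 comparisons.

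**Figure D1:**
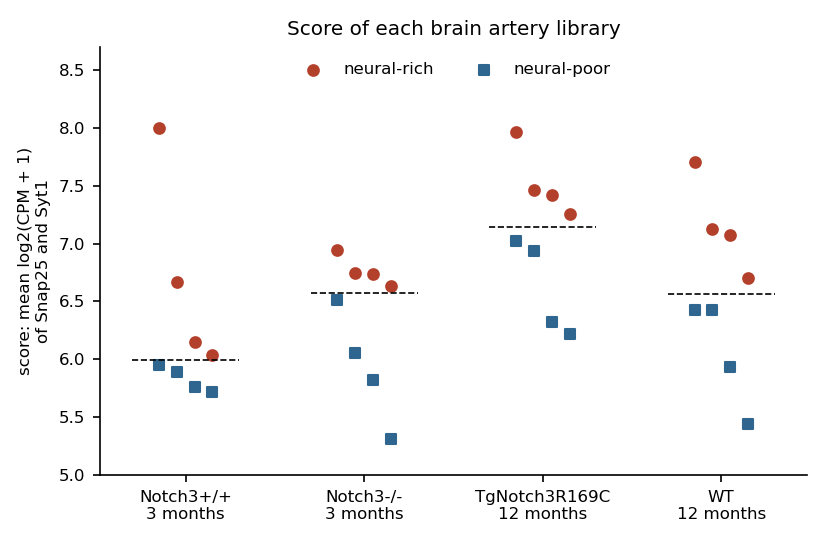
Score of each of the 32 libraries (vertical axis, mean log2(CPM + 1) of *Snap25* and *Syt1*) by group (horizontal axis). Red circles are the 4 neural-rich and blue squares the 4 neural-poor libraries of a group, and the dashed line lies midway between the lowest neural-rich and the highest neural-poor library; *Notch3*+/+ replicate 3 lies far above its group at 8.00.

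Transcripts of neurons and their synapses were higher in neural-rich libraries, by about 1.5-fold at the median of the presynaptic list. Within the neuronal lists the difference reached 3.00-fold for the NMDA receptor subunit *Grin2b*. Of 67 genes of smooth muscle, pericytes, endothelium, fibroblasts, microglia, and border macrophages, 0 were called higher and 3 lower (4.48%). The shares of all genes tested were 8.06% and 3.38%. edgeR's quasi-likelihood test called 2123 of 18553 genes at a Benjamini-Hochberg adjusted p below 0.05, which is 11.4% of those tested. Of these, 1495 were higher (8.06% of genes tested) and 628 were lower (3.38%) in neural-rich libraries. The 2 directions differed in size: the median log2 difference was 0.63 for the genes called higher and -0.12 for the genes called lower, and 234 genes were higher by 1 or more whereas 1 was lower by 1 or more on the log2 scale. Taken alone, *Notch3*+/+ mice gave 0 called genes (0%), *Notch3*-/- mice 1 (0.00539%), Tg*Notch3*R169C mice 446 (2.40%), and WT mice 181 (0.975%), with 4 against 4 libraries in each. These counts turned on single libraries: with 1 library left out they ran from 0 to 120 in *Notch3*+/+, from 0 to 2 in *Notch3*-/-, from 0 to 689 in Tg*Notch3*R169C, and from 0 to 552 in WT mice. Of the genes called over all groups, 95.1% had the same sign in all 4 groups, compared with 30.0% of all genes tested. The share among called genes is raised by their choice in a fit of the 4 groups together.

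The sets were made from measured values of the same libraries, so a call says that a transcript went with *Snap25* and *Syt1*, and it is not an effect of a treatment. The count of lower genes also depended on how libraries were scaled. With TMM normalization, which assumes that most genes do not differ, 70.4% of the calls were higher, compared with 79.7% (1555 higher, 396 lower) with RLE normalization and 94.5% (1904 higher, 110 lower) with plain scaling to total counts. The median over all genes was -0.03 on the log2 scale with TMM.

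Nearly all genes of the presynaptic terminal went with the score. Of 22 measured members, 20 were called higher and 0 lower, with a median log2 difference of 0.59. *Syp*, which encodes the vesicle membrane protein synaptophysin, ranged from 62.9 to 202 CPM with a median of 131 in neural-rich libraries and from 50.4 to 127 CPM with a median of 79.8 in neural-poor libraries. Its log2 difference was 0.65 ± 0.11 (SE, adjusted p = 1.97e-04), and in 3 of 4 groups every neural-rich library lay above every neural-poor one. *Rims1*, a scaffold of the release site, had a larger log2 difference of 0.99 ± 0.21 (adjusted p = 1.41e-03), although no single group was fully separated. *Vamp2*, the vesicle SNARE, differed least among the called members: its medians were 284 and 267 CPM and its log2 difference 0.12 ± 0.04 (adjusted p = 0.0182). The members that did not pass were *Vamp1* (0.06, adjusted p = 0.736) and *Snap91* (0.49, adjusted p = 0.137).

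The synapsin gene *Syn1* had a median of 41.2 CPM (range 25.7 to 73.0) in neural-rich and 25.1 CPM (range 17.5 to 45.8) in neural-poor libraries, a log2 difference of 0.83 ± 0.11 (adjusted p = 5.66e-05). Synapsin I tethers synaptic vesicles to the cytoskeleton. Its promoter is known for an RE1 element, the site through which the repressor REST keeps neuronal genes silent in other cells. The promoters of the called genes were therefore searched on both strands for TTCAGCACC followed by 2 bases of any kind and by GGACAG, 17 letters in all, with up to 2 mismatches at the 15 fixed letters, in the 300 bases from 250 before to 50 after the start of each gene in RefSeq (GRCm38.p6, another build than the mm39 used for the counts). Matches stood in 18 of 1054 promoters of genes higher in neural-rich libraries (1.71%), in 31 of 13066 promoters of all genes tested (0.237%), in 45 of all 27025 genes with a promoter in the table (0.167%), and in 0 of 495 promoters of genes lower in neural-rich libraries. With up to 1 mismatch the counts were 12 of 1054 (1.14%) and 16 of 13066 (0.122%), and with up to 3 they were 41 (3.89%) and 191 (1.46%). The cAMP response element TGACGTCA, searched the same way without mismatches, stood in 3.61% of the promoters of higher genes, 3.23% of those of lower genes, and 3.27% of those of all genes tested. These matches describe the letters in the windows and say nothing of binding.

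Of the genes with a match, *Syn1* and the AMPA receptor gene *Gria2* were members of the neuronal lists, and *Osbp2*, *Celsr3*, *Rasgrf1*, *Scamp5*, and *Sptbn4* were chosen after their values were seen, *Osbp2* because its window holds the only match without a mismatch and the others to show where single letters differ. The lines give each window 5′ to 3′ on the strand of the match, with the match in capitals and 5 flanking bases in lower case on each side.
Osbp2, chr11:3774786-3774812, plus strand: accgcTTCAGCACCGCGGACAGcggcc
Syn1, chrX:20921129-20921155, minus strand: tcggaTTCAGCACCGCGGTCAGagcct
Gria2, chr3:80802984-80803010, plus strand: tcgatTTTAGCACCGCGGACAGcgctt
Celsr3, chr9:108825913-108825939, plus strand: ctccgTTCAGCACCGTGGGCAGcactt
Rasgrf1, chr9:89909587-89909613, minus strand: cccgtTTCAGCAGCGCGGACAGggaca
Scamp5, chr9:57468193-57468219, minus strand: gaataTTTAGCACCACGGACAGctcct
Sptbn4, chr7:27396275-27396301, plus strand: gcggcTCCAGCACCACGGACAGttccc
The log2 differences of these genes were 0.64 for *Osbp2*, 0.83 for *Syn1*, 1.01 for *Gria2*, 0.77 for *Celsr3*, 0.75 for *Rasgrf1*, 0.35 for *Scamp5*, and 0.85 for *Sptbn4*. The number of mismatches was 0 in *Osbp2* and 1 in each of the others. With so little spread, these genes cannot show whether the size of the difference goes with the number of mismatches. For *Syn1*, the 250 bases before the start site (chrX:20920919-20921168, minus strand) are shown whole, because the RE1 match lies at their far end, beginning 232 bases before the start.
Syn1 upstream stretch: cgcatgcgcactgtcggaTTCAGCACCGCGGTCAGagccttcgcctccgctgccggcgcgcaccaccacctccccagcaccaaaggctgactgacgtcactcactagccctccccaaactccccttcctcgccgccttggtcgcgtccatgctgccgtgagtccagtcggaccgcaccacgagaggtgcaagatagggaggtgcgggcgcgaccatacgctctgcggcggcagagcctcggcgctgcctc

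Genes of the postsynaptic side were mostly higher as well. Of 18 measured members, 15 were called higher and 0 lower, with a median log2 difference of 0.82. *Grin2b* ranged from 12.2 to 116 CPM with a median of 31.7 in neural-rich libraries and from 7.27 to 21.9 CPM with a median of 11.9 in neural-poor libraries. Its log2 difference was 1.58 ± 0.23 (adjusted p = 6.18e-05) overall and lay between 1.37 and 1.91 in the 4 groups. *Camk2a*, the kinase subunit whose mRNA is carried into dendrites, ranged from 95.6 to 763 CPM with a median of 211 in neural-rich libraries and from 49.8 to 168 CPM with a median of 102 in neural-poor libraries (log2 difference 1.28 ± 0.23, adjusted p = 3.01e-04). The top value, 763 CPM, was that of *Notch3*+/+ replicate 3, and the other neural-rich *Notch3*+/+ libraries had 173, 105, and 103 CPM, of which the lower 2 lay below the highest neural-poor library of that group at 108 CPM.

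*Nrgn*, which encodes the dendritic calmodulin-binding protein neurogranin, had a log2 difference of 1.44 ± 0.31 (adjusted p = 1.72e-03), and *Gria2* one of 1.01 ± 0.15 (adjusted p = 5.66e-05). The scaffold genes differed in size: *Shank1* had a log2 difference of 0.82 ± 0.12 (adjusted p = 6.48e-05), with every neural-rich library above every neural-poor library in all 4 groups, and *Dlg4*, which encodes PSD-95, one of 0.35 ± 0.07 (adjusted p = 1.04e-03). Members that did not pass included *Homer1* (0.31) and *Iqsec2* (0.11).

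Of 16 genes of the neuronal cytoskeleton and cell body, 13 were called higher and 0 lower, with a median of 0.64. *Rbfox3*, which encodes the neuronal nuclear marker NeuN, had medians of 18.5 and 9.31 CPM and a log2 difference of 1.0 ± 0.22 (adjusted p = 2.25e-03). *Mapt*, the axonal microtubule protein tau, had medians of 67.6 and 42.5 CPM (0.69 ± 0.10, adjusted p = 6.48e-05), and *Map2*, its dendritic counterpart, medians of 194 and 148 CPM (0.50 ± 0.08, adjusted p = 1.48e-04). Genes of a nuclear, an axonal, and a dendritic protein thus moved in the same direction. Bulk RNA does not show where in a neuron these mRNAs lay. *Nefm* (0.54), *Nefh* (0.37), and *Stmn2* (0.17, adjusted p = 0.196) did not pass.

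Transmitter type was examined next. Of 11 genes of excitatory neurons 6 were called higher, with a median of 0.67, and of 13 genes of inhibitory neurons 8 were called higher, with a median of 0.95, and none of either list was called lower. *Slc17a7*, the vesicular glutamate transporter of cortical and hippocampal neurons, ranged from 17.03 to 122 CPM with a median of 64.5 in neural-rich libraries and from 14.7 to 54.4 CPM with a median of 26.04 in neural-poor libraries (log2 difference 1.19 ± 0.21, adjusted p = 2.46e-04). *Gad1*, the enzyme that makes GABA, ranged from 32.3 to 218 CPM with a median of 65.3 in neural-rich libraries and from 12.1 to 52.1 CPM with a median of 33.4 in neural-poor libraries (1.17 ± 0.21, adjusted p = 3.31e-04). Genes of both transmitter systems were thus among those called, and the difference between the 2 lists was not tested.

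*Gad1* and *Slc17a7* had their highest values in different libraries, although each of these libraries led its group in both genes. *Gad1* was highest in Tg*Notch3*R169C replicate 5 at 218 CPM, where *Slc17a7* was 117 CPM. *Slc17a7* was highest in *Notch3*+/+ replicate 3 at 122 CPM, where *Gad1* was 110 CPM. WT replicate 3, with the highest score of its group, had 72.8 CPM of *Slc17a7*, the highest of the WT libraries, and 32.3 CPM of *Gad1*, the lowest of the neural-rich set. *Gad2* (0.91 ± 0.18, adjusted p = 9.13e-04) and the cortical interneuron gene *Lamp5* (1.47 ± 0.36, adjusted p = 5.61e-03) were higher, whereas *Vip* (1.06, adjusted p = 0.0551), *Pvalb* (0.72, adjusted p = 0.180), and *Npy* (0.83, adjusted p = 0.307) did not pass.

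**Figure D2:**
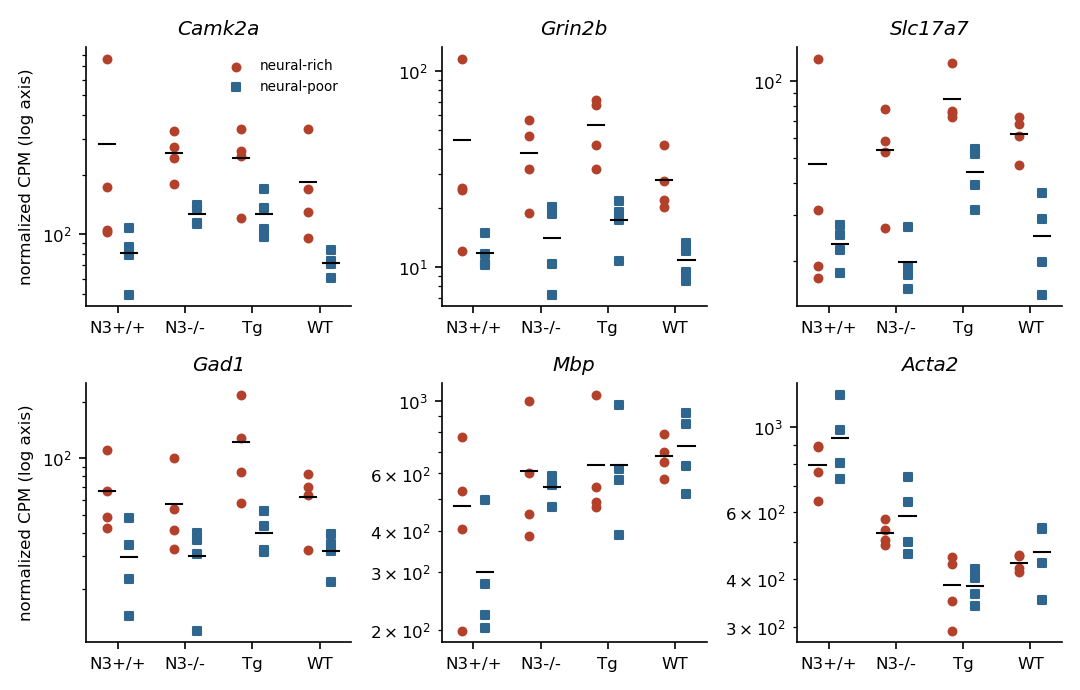
Normalized CPM (vertical, log axis) of 6 genes in every library, by group (N3+/+, *Notch3*+/+; N3-/-, *Notch3*-/-; Tg, Tg*Notch3*R169C; WT). Red circles are neural-rich and blue squares neural-poor libraries, and bars are means of 4 libraries; the neuronal genes *Camk2a*, *Grin2b*, *Slc17a7*, and *Gad1* have higher means in neural-rich libraries of every group, whereas the myelin gene *Mbp* and the smooth muscle gene *Acta2* overlap.

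Over the 5 neuronal lists, which held 80 different genes, 62 were called higher and 0 lower, compared with 8.06% of all genes tested for higher. Their summed level ranged from 2911 to 6614 CPM with a median of 4330 in neural-rich libraries and from 2441 to 4103 CPM with a median of 2905 in neural-poor libraries. Within each of the 4 groups, every neural-rich library had a higher sum than every neural-poor library. In bulk RNA, fewer cells or processes of a type and less RNA in each cannot be told apart.

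Markers of brain regions were examined next. Of 8 genes of the cerebral cortex 6 were called higher, with a median of 0.87, among them the cortical transcription factor gene *Tbr1*, whose medians were 2.98 and 1.397 CPM (1.13 ± 0.26, adjusted p = 3.87e-03). Of 8 striatal genes none was called in either direction, and their median was 0.01. *Ppp1r1b*, which encodes the striatal phosphoprotein DARPP-32, had medians of 47.3 and 47.1 CPM in neural-rich and neural-poor libraries, and *Drd1*, a dopamine receptor gene, 1.77 and 1.404 CPM. Of 5 thalamic, 6 cerebellar, and 7 measured brainstem genes none was called, with medians of -0.01, 0.19, and 0.29. In lists this small, no call is close to what the 11.4% of all genes called would give, so these counts do not set the regions apart.

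Of 9 measured hypothalamic genes 1 was called higher, near the 8.06% of all genes. It was *Hcrt*, the gene of the neuropeptide orexin, at medians of 0.62 and 0.20 CPM (1.32 ± 0.42, adjusted p = 0.0393). Of the 32 fits without 1 library, 15 did not call it, and its adjusted p ranged from 0.0118 to 0.0855. *Oxt* (1.17, adjusted p = 0.169) and *Avp* (0.36, adjusted p = 0.662), the oxytocin and vasopressin genes, did not pass. *Oxt* reached 67.3 CPM in the highest neural-rich library and 14.5 CPM in the highest neural-poor library, although the medians were 4.19 and 3.55 CPM.

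**Figure D3:**
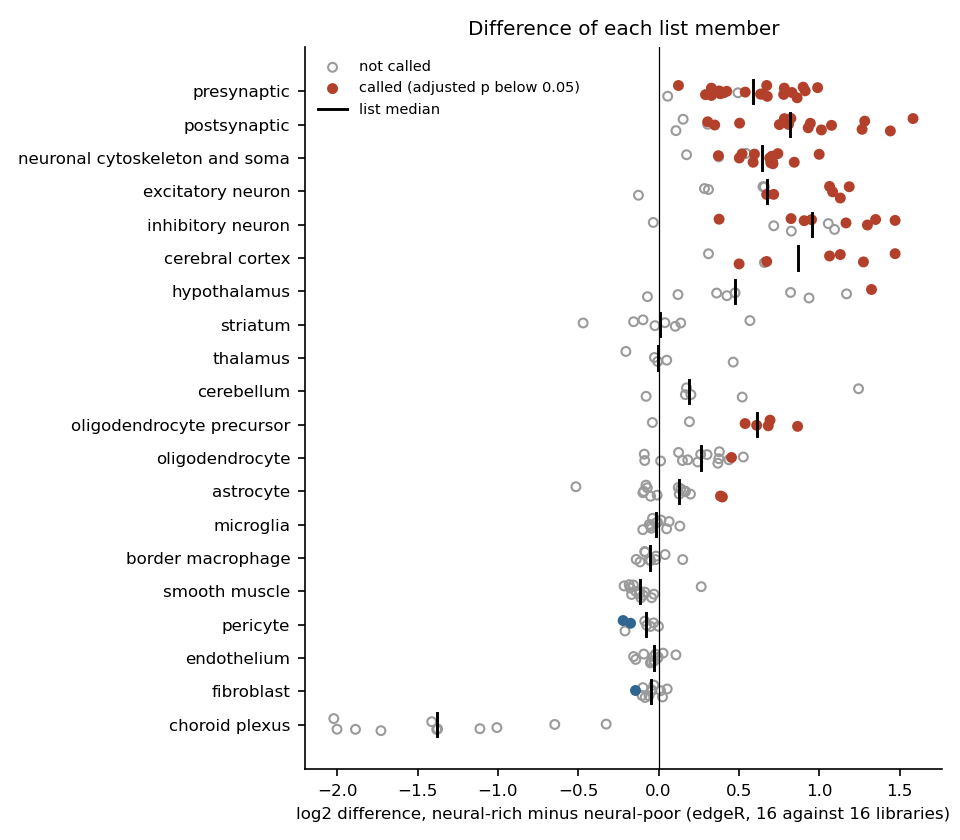
Log2 difference of every measured member of 20 lists (horizontal axis, neural-rich minus neural-poor, 16 against 16 libraries), with lists in rows. Filled points were called by edgeR's quasi-likelihood test (red higher, blue lower), open points were not, and black bars are list medians, which lie between 0.59 and 0.95 for the neuronal and cortical lists, and at 0.01 and -0.01 for the striatal and thalamic lists.

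Genes of the oligodendrocyte lineage were examined by cell stage, and the stages were not tested against each other. Of 7 genes of oligodendrocyte precursors and newly formed oligodendrocytes, 5 were called higher and 0 lower, with a median of 0.61. These were *Gpr17* (0.87 ± 0.18, adjusted p = 1.13e-03), *Lhfpl3* (0.69 ± 0.14, adjusted p = 1.12e-03), *Neu4* (0.68 ± 0.16, adjusted p = 3.53e-03), *Olig1* (0.61 ± 0.12, adjusted p = 9.93e-04), and *Olig2* (0.54 ± 0.14, adjusted p = 8.89e-03). *Olig1* and *Olig2* are transcription factors of the whole lineage, and *Gpr17* marks cells between precursor and mature oligodendrocyte. The difference was widest in Tg*Notch3*R169C mice, with a list median of 1.25 compared with 0.37, 0.35, and 0.61 in *Notch3*+/+, *Notch3*-/-, and WT mice, and these group differences were not tested.

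Of 15 oligodendrocyte genes 13 had a positive difference, with a median of 0.26, and 1 was called higher, close to the 8.06% of all genes. It was *Myrf*, a transcription factor that turns on myelin genes (0.45 ± 0.13, adjusted p = 0.0231). Without Tg*Notch3*R169C replicate 6 its difference was 0.37 and its adjusted p 0.0526. *Mbp*, which encodes myelin basic protein, ranged from 199 to 1042 CPM with a median of 561 in neural-rich libraries and from 203 to 970 CPM with a median of 558 in neural-poor libraries (0.18 ± 0.18, adjusted p = 0.577). *Mbp* therefore varied widely among libraries of both sets.

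Of 16 astrocyte genes 2 were called higher and 0 lower, with a median of 0.13. A list this small does not set that count apart from the 8.06% of all genes called higher. *Aldoc*, an aldolase of brain, had medians of 228 and 184 CPM (0.39 ± 0.09, adjusted p = 2.94e-03). *Slc1a2*, the glial glutamate transporter GLT-1, had medians of 601 and 502 CPM (0.40 ± 0.13, adjusted p = 0.0410), and its call was lost in 17 of 32 fits that left out 1 library, with an adjusted p of up to 0.0825. *Gfap*, the intermediate filament of astrocytes, had medians of 684 and 618 CPM (0.14 ± 0.08, adjusted p = 0.322), and *Clu*, which encodes clusterin, 1346 and 1400 CPM (-0.10 ± 0.07, adjusted p = 0.440). The summed astrocyte list ranged from 6459 to 7791 CPM with a median of 7327 in neural-rich libraries and from 6091 to 7998 CPM with a median of 7263 in neural-poor libraries. Astrocyte RNA was thus abundant in both sets, and its ranges overlapped. Most calls in the lists of neural tissue were those of neuronal genes, and "neural-rich" is used in that sense.

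Genes of the artery wall and its macrophages differed little. Of 67 measured genes of smooth muscle, pericytes, endothelium, fibroblasts, microglia, and border macrophages, 0 were called higher and 3 lower, or 4.48%, near the 3.38% of all genes. A negative difference was seen in 55 of the 67 with TMM and in 41 with plain scaling, with medians of -0.05 and -0.01. Of 14 smooth muscle genes 0 were called, and 13 had a negative difference (12 with plain scaling), with a median of -0.12 (-0.08 with plain scaling). *Acta2*, which encodes smooth muscle actin, ranged from 293 to 890 CPM with a median of 476 in neural-rich libraries and from 339 to 1215 CPM with a median of 521 in neural-poor libraries (-0.12 ± 0.08, adjusted p = 0.393). *Myh11*, smooth muscle myosin, had medians of 348 and 350 CPM (-0.11 ± 0.09, adjusted p = 0.465), and *Tagln*, which encodes transgelin, 415 and 458 CPM (-0.14 ± 0.08, adjusted p = 0.318). *Acta2* separated the groups more than the sets. Its mean was 795 ± 118 CPM in neural-rich and 934 ± 216 CPM in neural-poor *Notch3*+/+ libraries (SD, n = 4 each). The means were 528 ± 37.3 and 585 ± 127 CPM in *Notch3*-/- libraries. At 12 months they were 441 ± 22.5 and 470 ± 91.8 CPM in WT and 385 ± 76.6 and 383 ± 38.2 CPM in Tg*Notch3*R169C libraries. The *Notch3*+/+ and Tg*Notch3*R169C groups differ in both age and genotype.

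Of 8 pericyte genes 2 were called lower, *Rgs5* (medians 242 and 265 CPM, log2 difference -0.17 ± 0.05, adjusted p = 0.0133) and *Kcnj8* (6.89 and 8.08 CPM, -0.22 ± 0.07, adjusted p = 0.0302). *Rgs5* regulates G protein signaling in mural cells, and *Kcnj8* encodes a pore subunit of their KATP channel. Neither passed with plain scaling (adjusted p = 0.0783 and 0.115), and the call of *Kcnj8* was lost in 9 of 32 fits that left out 1 library. Of 11 fibroblast genes 1 was called lower, *Ogn*, which encodes the matrix protein osteoglycin (956 and 1020 CPM, -0.15 ± 0.05, adjusted p = 0.0425), and its call was lost in 26 of those 32 fits. Of 13 endothelial, 11 microglial, and 10 border macrophage genes 0 were called, with medians of -0.03, -0.02, and -0.05. All 8 pericyte and 11 of 13 endothelial genes had a negative difference, compared with 6 and 5 with plain scaling, and the endothelial and microglial medians changed sign with plain scaling, to 0.01 and 0.02.

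The 15 genes with the largest decrease among those with a mean of at least 5 CPM were all lower by less than 0.5 on the log2 scale. *Tuba1c*, a tubulin gene, had medians of 8.53 and 10.5 CPM (-0.43 ± 0.11, adjusted p = 7.04e-03). *Gulp1*, an adaptor for engulfment, had medians of 42.6 and 51.2 CPM (-0.25 ± 0.06, adjusted p = 3.35e-03), and *Sfrp1*, a secreted Wnt inhibitor, 134 and 157 CPM (-0.25 ± 0.07, adjusted p = 0.0190). These genes share no list. In contrast, the 15 genes with the largest increase were led by neuronal genes outside the lists as well as within them: *Kcnh7*, a potassium channel gene (1.43 ± 0.22, adjusted p = 8.07e-05), *Icam5*, the adhesion molecule telencephalin of forebrain neurons (1.35 ± 0.21, adjusted p = 7.68e-05), and *Grm2*, a metabotropic glutamate receptor gene (1.31 ± 0.25, adjusted p = 5.78e-04).

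In 18 genes (0.097% of those tested) every neural-rich library lay above every neural-poor library in all 4 groups, and in 0 genes the reverse was seen. Of these, *Shank1* and *Add2* were among the genes named by the lists and pairs, and *Gabrb2* (1.15), a GABA receptor subunit gene, and *Slc2a3* (0.74), the neuronal glucose transporter gene, were chosen after their values were seen.

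Pairs of related genes, one used mainly by neural cells and one broadly expressed, gave a comparison within a gene family. Of 15 neural members other than *Snap25*, 13 were called higher, with a median of 0.55. Of 16 paralogs 1 was called higher, with a median of -0.03. The share of all genes called higher was 8.06%, and the paralog count is close to it. Dynamin 1, *Dnm1*, which retrieves synaptic vesicles, had medians of 120 and 65.1 CPM (0.79, 95% interval 0.58 to 1.01), and dynamin 2, *Dnm2*, 141 and 146 CPM (-0.04, -0.08 to 0.01). The intervals of the 2 dynamins did not overlap.

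The same held for *Camk2a* (1.28, 95% interval 0.81 to 1.75) and *Camk2d* (0.02, -0.07 to 0.11), for β-adducin *Add2* (0.87, 0.64 to 1.095) and α-adducin *Add1* (0.00, -0.05 to 0.05), and for the enolases *Eno2* (0.37, 0.24 to 0.51) and *Eno1* (-0.01, -0.17 to 0.14). *Snap23*, the widely expressed relative of *Snap25*, had medians of 41.5 and 45.5 CPM, a log2 difference of -0.13 (95% interval -0.24 to -0.03, adjusted p = 0.0910). The stathmins were an exception. *Stmn1* was the called paralog (0.30, 0.13 to 0.47, adjusted p = 0.0160), and the neuronal *Stmn2* did not pass (0.17, 0.00 to 0.34). *Atp2b2*, a calcium pump gene with medians of 72.1 and 50.7 CPM, also failed to pass (0.55, 0.00 to 1.096, adjusted p = 0.207). Closely related genes can share reads, which was not examined here.

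**Figure D4:**
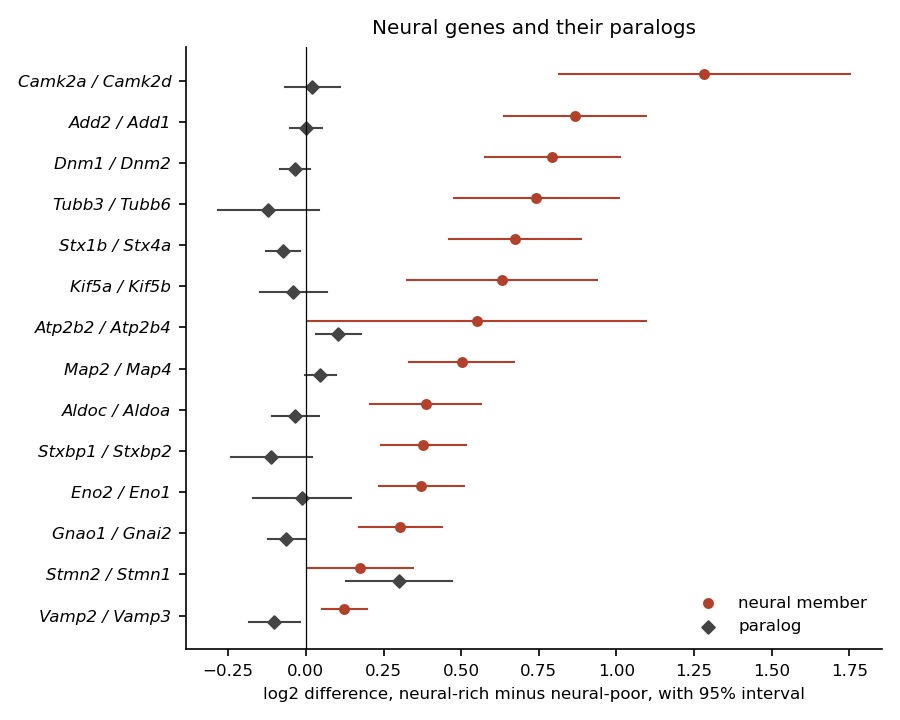
Log2 difference between neural-rich and neural-poor libraries (horizontal axis, point with 95% interval, 16 against 16 libraries) for 14 neural genes (red circles) and their paralogs (dark diamonds), ordered by the neural member. All neural members shown except *Stmn2* and *Atp2b2* were called higher, and the paralogs lie near 0, from -0.12 for *Tubb6* to 0.30 for *Stmn1*.

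Immediate early genes, which are switched on by neuronal activity and by handling of tissue alike, did not move together. Of 10 measured, 2 were called higher and 0 lower, with a median of -0.11. In a list this small, that count is not set apart from the 8.06% of all genes called higher. *Arc*, whose product acts at dendritic spines, had medians of 7.97 and 4.62 CPM (1.08 ± 0.25, adjusted p = 3.33e-03), and *Npas4*, a transcription factor gene induced in neurons by calcium, 5.11 and 3.81 CPM (0.46 ± 0.11, adjusted p = 5.52e-03). *Fos* had medians of 13.4 and 14.5 CPM (-0.14 ± 0.22, adjusted p = 0.752), and *Egr1* 52.3 and 57.0 CPM (-0.05 ± 0.19, adjusted p = 0.902).

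Other tissues also varied widely between libraries. Of 11 choroid plexus genes 0 were called, but all 11 had a negative difference, with a median of -1.38 on the log2 scale. The list sum ranged from 544 to 15919 CPM in neural-rich and from 546 to 27521 CPM in neural-poor libraries. *Ttr*, the transthyretin gene that dominates choroid plexus, had a median of 36.1 CPM in neural-rich libraries (range 14.01 to 12892) and 87.8 CPM in neural-poor libraries (range 19.1 to 23151), with a log2 difference of -2.02 ± 1.34 (adjusted p = 0.383). With 1 library left out this difference ranged from -3.87 to -0.76 and was called in 0 of 32 fits. *Ttr* was 7895 CPM or more in 2 neural-rich and 5 neural-poor libraries and 329 CPM or less in the others. Of 6 measured pituitary genes 0 were called, although the list sum was 8977 CPM in the neural-poor *Notch3*+/+ replicate 5. With *Ttr* as a covariate 2739 genes were called (1816 higher, 923 lower), of which 1916 were among the 2123, and with the choroid plexus and oligodendrocyte list levels as covariates 2174 (1479 higher, 695 lower), of which 1700 were. Of the 5 red cell and 7 measured mitochondrial genes 0 were called.

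The sexes were unevenly divided. *Xist*, which is transcribed from the inactive X chromosome of females, was above 10 CPM in 11 of 16 neural-rich and 5 of 16 neural-poor libraries, at 2 and 2 of 4 in *Notch3*+/+ mice and 3 and 1 of 4 in each other group, and Y chromosome genes were high in exactly the remaining libraries. The replicate number went with *Xist*: it was high in 0 of the 16 libraries numbered 1 to 4 and in 16 of the 16 numbered 5 to 8. With *Xist* as a covariate 2127 genes were called (1395 higher, 732 lower), of which 1723 were among the 2123, so most calls were also made with sex in the model. *Myrf*, *Slc1a2*, *Hcrt*, *Kcnj8*, and *Ogn* were not among these.

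*Notch3* did not follow the score. Its level was 70.0 to 84.9 CPM in neural-rich and 65.8 to 98.1 CPM in neural-poor *Notch3*+/+ libraries, 13.9 to 18.5 and 13.7 to 17.6 CPM in *Notch3*-/- libraries, 168 to 188 and 108 to 219 CPM in Tg*Notch3*R169C libraries, and 70.6 to 85.0 and 60.1 to 83.5 CPM in WT libraries. The reads of the transgenic mice can include rat transcripts aligned to the mouse gene, and the level in knockout mice counts what remains of the transcript. The difference between sets was -0.05 ± 0.08 (adjusted p = 0.770). Of 11 *Notch3* target genes named by the study, 0 were called between sets, with a median of 0.01. In a list this small, that count is close to what the 11.4% of all genes called would give.

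The sets also allowed the genotype comparisons to be made in each of them, on 4 against 4 mice. In neural-rich libraries 28 genes were called for *Notch3*-/- against *Notch3*+/+ mice (0.151% of 18555 tested) and in neural-poor libraries 71 (0.383%). They shared 26 genes, 92.9% of the first list and 36.6% of the second, all with the same direction. *Notch3* itself was lower by -2.32 ± 0.16 in neural-rich and -2.42 ± 0.16 in neural-poor libraries on the log2 scale (adjusted p = 8.80e-10 and 3.27e-10), and the actin-binding protein gene *Xirp1* by -2.03 ± 0.19 and -2.06 ± 0.19 (adjusted p = 2.68e-07 and 1.87e-07). Of the 11 targets, 5 were called in neural-rich and 9 in neural-poor libraries, and all 11 had a negative difference in both.

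The targets that were called in neural-poor libraries only were not shown to differ. *Nrip2* was lower by -0.70 ± 0.16 in neural-rich (adjusted p = 0.0762) and by -0.95 ± 0.16 in neural-poor libraries (adjusted p = 2.16e-03), *S1pr3* by -0.59 ± 0.14 (adjusted p = 0.149) and -0.76 ± 0.14 (adjusted p = 8.24e-03), and *Tbx2* by -0.58 ± 0.18 (adjusted p = 0.479) and -0.90 ± 0.18 (adjusted p = 0.0104). The test of the difference itself, an interaction of genotype and set, gave an adjusted p of 0.9999 for each of the 11. In all 11 the decrease was smaller in neural-rich libraries, by up to 0.32 for *Tbx2*, and this shared direction was not tested. Over all genes the interaction called 0 of 18555 (449 at an unadjusted p below 0.05), and DESeq2 also called 0. Without *Notch3*-/- replicate 8 edgeR called 1. The counts within sets were 18 in neural-rich libraries without *Notch3*+/+ replicate 7 and 39 in neural-poor libraries without *Notch3*+/+ replicate 4.

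For Tg*Notch3*R169C against WT mice, 3 genes were called in neural-rich (0.0162%) and 4 in neural-poor libraries (0.0216%), and they shared *Notch3* (1.24 ± 0.15 and 1.39 ± 0.16), *Adamtsl2* (1.14 ± 0.17 and 1.17 ± 0.17), and *Gm30232* (3.94 ± 0.49 and 4.99 ± 0.53). None of the 11 targets was called in either set. *Cdh6*, a cadherin gene, was 0.58 ± 0.20 higher in Tg*Notch3*R169C than WT mice in neural-rich libraries (adjusted p = 0.343) and -0.03 ± 0.20 in neural-poor libraries (adjusted p = 0.981), and *Grip2* 0.50 ± 0.21 and -0.05 ± 0.21 (adjusted p = 0.465 in the former). Neither interaction passed (adjusted p = 0.781 and 0.791). Of the other targets, *Xirp1* differed by -0.27 ± 0.18 in neural-rich and -0.54 ± 0.18 in neural-poor libraries. *Pln*, *Sorbs2*, *Susd5*, and *Tbx2* also had a negative difference in both sets, and *Nrip2* a positive one in both. *Angpt4*, *Pgam2*, and *S1pr3* had a positive difference in neural-rich libraries only. Over all genes the interaction called 0 of 18555 (1172 at an unadjusted p below 0.05), and DESeq2 called 13. Without WT replicate 8, a neural-rich library, edgeR called 19 for the interaction and 23 in neural-rich libraries.

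**Figure D5:**
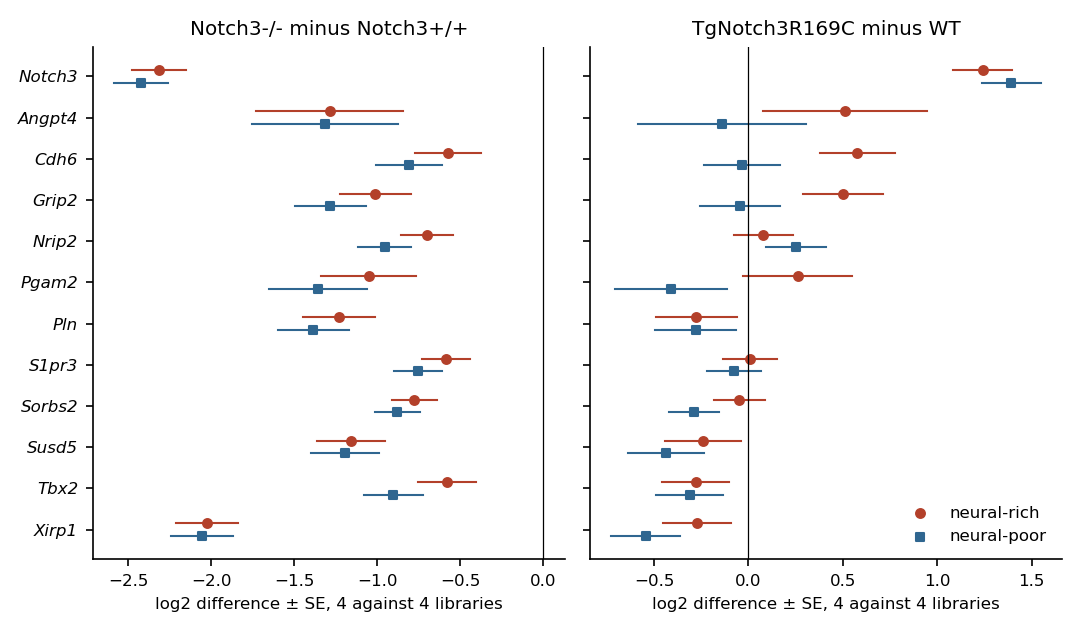
Log2 difference ± SE of *Notch3* and its 11 target genes (rows) for *Notch3*-/- minus *Notch3*+/+ (left) and Tg*Notch3*R169C minus WT (right), in neural-rich (red circles) and neural-poor (blue squares) libraries, 4 against 4 in each. In knockout mice every gene lies below 0 in both sets. In transgenic mice *Notch3* lies farthest from 0, and the targets lie between -0.54 (*Xirp1*, neural-poor) and 0.58 (*Cdh6*, neural-rich).

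With the set added to the model of all 32 libraries, 168 genes were called for *Notch3*-/- against *Notch3*+/+ mice (0.905%), compared with 174 without it (0.938%), and 161 were called in both. For Tg*Notch3*R169C against WT mice 25 genes were called with the set (0.135%) and 21 without it (0.113%), and all 21 were among the 25. With the set in the model this count was 15 without WT replicate 5, 39 without *Notch3*+/+ replicate 5 or *Notch3*-/- replicate 1, 48 without WT replicate 1, and 57 without Tg*Notch3*R169C replicate 8. The 4 genes gained were *Cd164*, *Mdga1*, *Tanc2*, and *Vps13c*, named after their values were seen. All 11 targets were called in *Notch3*-/- mice and 0 in Tg*Notch3*R169C mice with the set in the model, as they were without it.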

How the data were processed

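RNA-seq of brain arteries gave 32 libraries, 1 per mouse. The values the authors deposited are raw counts, whole numbers for each Ensembl gene that were not normalized. The submitters' processing notes name bcl2fastq 2.20.0.422, cutadapt 1.10, Bowtie2 2.2.8, STAR 2.5.3a, HTSeq 0.6.1p1, and mm39. All 32 columns of the table were matched to a library. Of 55357 genes, 16744 had no count, and 52081 were given a symbol.

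Scores used plain CPM. The analysis used edgeR 4.0.16 under R 4.3.3 (filterByExpr, TMM, quasi-likelihood test), limma 3.58.1, and DESeq2 1.42.0, which is the study's own method. Group was a covariate in the comparison of sets; *Snap25* and *Syt1* were left out of it. Sets within groups and genotypes within sets came from 1 fit of 8 group-by-set means. Intervals are 95% and cover counting error and variation between mice. The steps were tested on simulated counts.

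The members and 29 gene lists were chosen with earlier results of these data known. Genes named are *Notch3*, list members, both genes of 16 pairs, and the 15 largest called changes per direction with a mean of at least 5 CPM and the same sign in all groups. Values of some genes, 1 pair included, are not reported here, and counts over lists and pairs include them. Promoters were matched to genes by symbol. Alternatives were other normalizations, filters, tests, covariates, a replicate block, 12 against 12 libraries without those next to the boundary, and leaving out each library. Covariates of *Xist* and of choroid plexus with oligodendrocyte lists, and RE1 searches with 1 and 3 mismatches, were added after seeing the data.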

Additional observations from a re-analysis of the deposited data

Results flagged for a closer look

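Of 44 groups of 8 libraries examined (11 list sums in 4 groups), 8 held an outlying library. Its gap to its nearest neighbor took more than the share of the range that Dixon's test allows at 95%. Chance would give about 2.2 for independent, normally distributed sums. These sums come from the same libraries and were not on a log scale, so 8 and 2.2 cannot be compared as a test. *Notch3*+/+ replicate 3 accounted for 3 of the 8: its presynaptic sum of 2281 CPM by 0.618, its postsynaptic sum of 2590 CPM by 0.802 (next library 1079 CPM), and its excitatory neuron sum of 282 CPM by 0.796 (next 144 CPM). Its score of 8.00, which chose its set and is given as a description, lay 0.582 of the range above the next. Without this library 1884 genes were called between the sets, of which 1826 were among the 2123. The inhibitory neuron sum of Tg*Notch3*R169C replicate 5 was 777 CPM, compared with 442 CPM in the next library (0.546 of the range). The oligodendrocyte sum of *Notch3*-/- replicate 5 was 2495 CPM, compared with 1692 CPM (0.702). Among neural-poor libraries, the choroid plexus sum was 1106 CPM in *Notch3*+/+ replicate 5, compared with 782 CPM (0.773), and 27330 CPM in *Notch3*-/- replicate 8, compared with 783 CPM (0.991). The pituitary sum of *Notch3*+/+ replicate 5 was 8977 CPM, compared with 78.2 CPM in the next library (0.992). The part of these libraries in the differences between sets is covered only by the fits that left out 1 library each.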

How the results depend on the processing

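Each group alone, with 4 against 4 libraries, called 0 genes in *Notch3*+/+, 1 (1 higher, 0 lower) in *Notch3*-/-, 446 (406 higher, 40 lower) in Tg*Notch3*R169C, and 181 (111 higher, 70 lower) in WT mice, so the 2123 calls rest on the 4 groups together. DESeq2 called 96, 21, 831, and 712 genes in these groups. The replicate block gave 0, 0, 176, and 0, and 12 against 12 libraries 0, 2, 0, and 241. In Tg*Notch3*R169C mice 253 genes were called without a filter and 290 with limma voom, and in WT mice 3 without a filter and 363 with *Ttr* as a covariate. Leaving out 1 library gave 0 to 120, 0 to 2, 0 to 689, and 0 to 552. In *Notch3*+/+ mice it was 120 without replicate 7 and 32 without replicate 8. In *Notch3*-/- mice it was 0 without replicate 1, 2, 4, or 5 and 2 without replicate 8. In Tg*Notch3*R169C mice it was 0, 1, 2, 169, 689, and 13 without replicate 1, 3, 5, 6, 7, and 8. In WT mice it was 0 without replicate 4, 5, or 7, 2 without 6, 56 without 2, and 420 without 1, and in the shared fit 552, 332, and 110 without *Notch3*+/+ replicate 3, 7, and 4 and 108 to 117 without *Notch3*-/- replicate 2, 3, 4, or 6. At an adjusted p below 0.01, 1181 genes were called, 183 of them lower. Leaving out 1 library gave 1760 to 2233 calls, 1337 to 1631 higher and 322 to 731 lower. The number of lower genes was least stable: it was 396 with RLE, 110 with plain scaling, 202 without a filter, 1015 with the score as a continuous variable, and 300 with 12 against 12 libraries, and it fell to 322 without WT replicate 7, 341 without WT replicate 8, 365 without WT replicate 3, 381 without WT replicate 5 or *Notch3*+/+ replicate 2, and 402 without Tg*Notch3*R169C replicate 3. The numbers of higher genes stayed within 1.5 times of 1495 in the fits of all groups.

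Replicate numbers were not taken to pair the mice: same-numbered libraries of different groups correlated at -0.37 to 0.49 in their deviations, above 0.1 in 22 of 48 pairs (97 of 336 pairs with other numbers), and 6 of 32 libraries correlated best with their own number. Numbers 1 to 4 and 5 to 8 differ in *Xist*, so the block also takes up sex. With the replicate number as a block 1290 genes were called, 215 of them lower, and 34 for *Notch3*-/- in neural-poor libraries.

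DESeq2 called more genes for genotype: 59 and 123 for *Notch3*-/- in neural-rich and neural-poor libraries, 78 and 35 for Tg*Notch3*R169C, 286 and 112 with the set in the model, 279 and 63 without it, and 13 for the difference of the Tg*Notch3*R169C effect, for which edgeR without a filter called 1. Leaving out 1 library gave 18 to 32 and 39 to 91 genes for *Notch3*-/- in the neural-rich and neural-poor sets, 3 to 23 and 3 to 8 for Tg*Notch3*R169C, 125 to 183 and 15 to 57 with the set in the model, and 0 to 1 and 0 to 19 for the interactions. For Tg*Notch3*R169C the neural-rich count was 9 without Tg*Notch3*R169C replicate 7, the neural-poor count 7 without Tg*Notch3*R169C replicate 8 and 8 without WT replicate 1, and the interaction count 1, 2, and 1 without Tg*Notch3*R169C replicate 3 or 8 or WT replicate 1. The score difference of *Notch3*-/- against *Notch3*+/+ mice then ranged from -0.013 to 0.32, and those of Tg*Notch3*R169C against WT and of WT against *Notch3*+/+ mice from 0.30 to 0.63 and from 0.18 to 0.58.

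Log2 differences that changed sign belonged to genes that were not called: *Mbp* (-0.037 with 12 against 12 libraries, -0.13 with the choroid plexus and oligodendrocyte covariates), *Fos* (0.31 with the continuous score, 0.20 with 12 against 12), *Egr1* (0.30, 0.32, and 0.025 with the *Xist* covariate, and from -0.168 to 0.048 with 1 library left out, above 0 without Tg*Notch3*R169C replicate 1 or WT replicate 1), *Ttr* (0.15 with the replicate block), and *Xist* (-0.031 with the block, -0.016 with itself as covariate). The immediate early list median was 0.26 with 12 against 12 libraries and 0.0021 with the *Xist* covariate. Of the tests of named genes with every library kept, 70 lost their call, and none of the genes called changed sign. The causes were not tested.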
